A study of Mus musculus with 5 samples.

Results

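The 9 genes described here, Muc2, Tff3, Fcgbp, Clca1, Zg16, Agr2, Spink4, Spdef and Sytl2, make the mucus of intestinal goblet cells or serve its secretion. They were chosen by name, and all 9 were found among the genes of the deposited matrices. The libraries hold single cells of the ileal epithelium, the lining of the last stretch of the small bowel. The mice were of the C57BL/6 strain and 8 to 12 weeks old. Cells were captured in droplets with the 10x Genomics 3' chemistry, which reads 1 end of each transcript and counts molecules by unique molecular identifiers (UMIs). There were 3 libraries from mice after sham surgery (sham 1, sham 2 and sham 3) and 2 from mice after small bowel resection (resection 1 and resection 2). The labels do not say whether each library came from a separate animal, so p-values measure the spread between these libraries, which may be technical.

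Goblet cells store mucin in granules and release it onto the epithelium, where it swells into a gel that keeps bacteria away from the cells. Muc2 is the gel-forming mucin of the intestine. Fcgbp, Clca1 and Zg16 are secreted into the same mucus layer: Fcgbp is a large mucin-like protein, Clca1 a metalloprotease that acts on mucus, and Zg16 a lectin that binds bacterial peptidoglycan. Tff3 is the trefoil peptide of goblet cells and promotes repair of the epithelium. Agr2 is a protein disulfide isomerase of the endoplasmic reticulum that mucin production needs. Spink4 is a small secreted protein of the Kazal protease inhibitor family. Spdef is an ETS-family transcription factor of goblet and Paneth cell maturation, and Sytl2 a synaptotagmin-like Rab27 effector of granule exocytosis. Paneth cells, the antimicrobial cells of the crypt base, come from the same secretory lineage.

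The RefSeq promoter table used here matched 4 of the 9 genes, and these 4 promoters are shown (assembly GRCm38.p6; the submitters' processing notes name GRCm38). All 4 genes had their highest mean level in goblet-like cells. E-boxes are the sites bound by helix-loop-helix factors such as Atoh1, the factor that commits cells to the secretory lineage. Each promoter runs 5′ to 3′ on the strand of its gene, from 250 bases before to 50 after the start, and capitals mark every E-box (CANNTG, which reads the same on both strands). The positions are chr7:141690090-141690389 (plus strand) for Muc2, chr7:28070986-28071285 (plus strand) for Fcgbp, chr12:35992675-35992974 (plus strand) for Agr2 and chr17:27728902-27729201 (minus strand) for Spdef.
Muc2: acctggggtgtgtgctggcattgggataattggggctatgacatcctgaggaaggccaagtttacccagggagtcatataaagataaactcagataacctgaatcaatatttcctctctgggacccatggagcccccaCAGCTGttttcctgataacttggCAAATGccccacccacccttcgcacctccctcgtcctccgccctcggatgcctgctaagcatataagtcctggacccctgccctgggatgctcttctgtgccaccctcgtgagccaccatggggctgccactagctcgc
Fcgbp: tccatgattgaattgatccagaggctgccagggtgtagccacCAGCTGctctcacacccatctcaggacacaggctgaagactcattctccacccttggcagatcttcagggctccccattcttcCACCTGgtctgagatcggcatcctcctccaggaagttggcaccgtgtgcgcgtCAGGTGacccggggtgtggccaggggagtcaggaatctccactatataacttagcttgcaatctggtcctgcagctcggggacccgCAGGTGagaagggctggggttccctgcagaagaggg
Agr2: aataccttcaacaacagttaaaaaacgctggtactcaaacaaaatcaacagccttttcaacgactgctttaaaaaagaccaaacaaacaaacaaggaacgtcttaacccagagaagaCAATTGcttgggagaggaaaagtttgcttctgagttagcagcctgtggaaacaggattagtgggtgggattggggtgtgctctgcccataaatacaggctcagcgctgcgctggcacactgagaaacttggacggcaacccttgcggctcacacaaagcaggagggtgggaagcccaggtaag
Spdef: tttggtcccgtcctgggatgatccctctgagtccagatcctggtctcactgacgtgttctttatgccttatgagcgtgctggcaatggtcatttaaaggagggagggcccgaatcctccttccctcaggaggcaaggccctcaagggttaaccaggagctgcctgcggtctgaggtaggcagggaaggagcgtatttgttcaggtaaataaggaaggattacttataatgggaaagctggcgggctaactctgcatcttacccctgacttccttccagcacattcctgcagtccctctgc
Fcgbp held 4 E-boxes, Muc2 held 2 and Agr2 held 1, while these letters were not in the Spdef window. Of all 32851 promoters of this length, 72.3% held at least 1. The GGAT core preferred by Spdef, searched on both strands, matched 4 times in Muc2, 2 times each in Fcgbp and Agr2 and 5 times in Spdef itself, and was present in 79.6% of all promoters. Such matches describe the letters only.

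After filtering, 18235 cells remained, from 1283 in sham 1 to 6701 in resection 2, with a median of 4541 to 6239.5 UMIs per barcode by library. Any pair of libraries shared 6 to 47 cell barcodes. Clustering left out the 9 genes and the pathway lists used below, and clusters were named from markers that hold none of the 9. The classes were 260 goblet-like, 1017 Paneth-like, 630 stem-like, 1077 cycling-like, 5340 immature enterocyte-like, 9431 enterocyte-like, 18 tuft-like and 462 T cell-like cells. Goblet-like cells numbered 16, 109 and 30 in sham 1 to 3 and 23 and 82 in the resection libraries, and stem-like cells of sham 1 only 2. Their leading genes were Zg16, Clca1, Fcgbp, Agr2, Tff3 and Muc2, followed by Klk1, Selm, Hepacam2 and S100a6. The 12 goblet markers used for naming summed to 751 to 1567 CPM (UMI counts scaled to a common total, a gene's share of all UMIs of a class in a library) in goblet-like and 140 to 165 CPM in Paneth-like cells. Markers of stromal cells were at 0 in goblet-like cells, and 5 of the 6 macrophage markers were at 0. Enteroendocrine markers summed to 101 to 287 CPM there and T cell markers to 23.9 to 214 CPM. By mean marker position the enteroendocrine class came second for the goblet-like cluster (0.78), and no cluster was named enteroendocrine. The libraries fell into 2 sets by the clusters they filled: sham 1 with resection 1 (overlap of cluster composition 37.6%), and sham 2, sham 3 and resection 2 (48.0% to 57.3%). Overlap between the sets was 5.61% to 9.25%, and the labels name no batch.

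All 9 genes had their highest mean level in goblet-like cells. Muc2 (chromosome 7, 141690340 to 141754693, plus strand, GRCm38) stood at 2509, 1892 and 2306 CPM in sham 1, 2 and 3 and at 4068 and 1763 CPM in resection 1 and 2. The enterocyte-like cells of the same libraries held 35.9 to 86.3 CPM of Muc2, so no goblet-like value overlapped them. Fcgbp (chromosome 7, 28071236 to 28120862, plus strand) was at 15275, 8573 and 10057 CPM in the sham and 18158 and 7259 CPM in the resection libraries. Sham 1 and resection 1 were the 2 highest libraries for Fcgbp, whichever surgery they came from. Zg16 (chromosome 7, 127050156 to 127087328, minus strand) was at 22684, 16968 and 32430 CPM after sham surgery and 23930 and 15644 CPM after resection. The annotation places Gm44939 and Gm22747 on the opposite strand within the span of Zg16. Clca1 (chromosome 3, 145003817 to 145032776, minus strand) was at 2615, 1469 and 2806 CPM in the sham and 2221 and 1490 CPM in the resection libraries. Its 2 lowest values were thus from sham 2 and resection 2, and the groups overlapped.

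Tff3 (chromosome 17, 31125306 to 31129646, minus strand) was at 27520, 25998 and 43416 CPM in the goblet-like cells of the sham and 34851 and 27496 CPM in those of the resection libraries. Sham 3 was the highest for Tff3 as it was for Zg16. Agr2 (chromosome 12, 35992907 to 36004087, plus strand) varied most between libraries, at 1796, 2813 and 9110 CPM after sham surgery and 899.5 and 4311 CPM after resection. Its highest library, sham 3, and its lowest, resection 1, lay in different sets, and sham 1, of the same set as resection 1, was the second lowest. Spink4 (chromosome 4, 40920052 to 40931395, plus strand) was at 13447, 8428 and 10564 CPM in the sham and 13438 and 7259 CPM in the resection libraries. The high values again came from sham 1 and resection 1.

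Spdef and Sytl2 were sparse. Spdef (chromosome 17, 27714352 to 27728955, minus strand) gave 4, 22, 8, 6 and 36 UMIs in the goblet-like cells of sham 1 to 3 and resection 1 and 2, or 42.5, 38.5, 47.7, 47.8 and 79.9 CPM. Sytl2 (chromosome 7, 90302252 to 90410719, plus strand) gave 6, 22, 8, 6 and 11 UMIs, or 63.8, 38.5, 47.7, 47.8 and 24.4 CPM. For both genes the counting error of so few UMIs is large beside the differences between libraries.

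**Figure D1:**
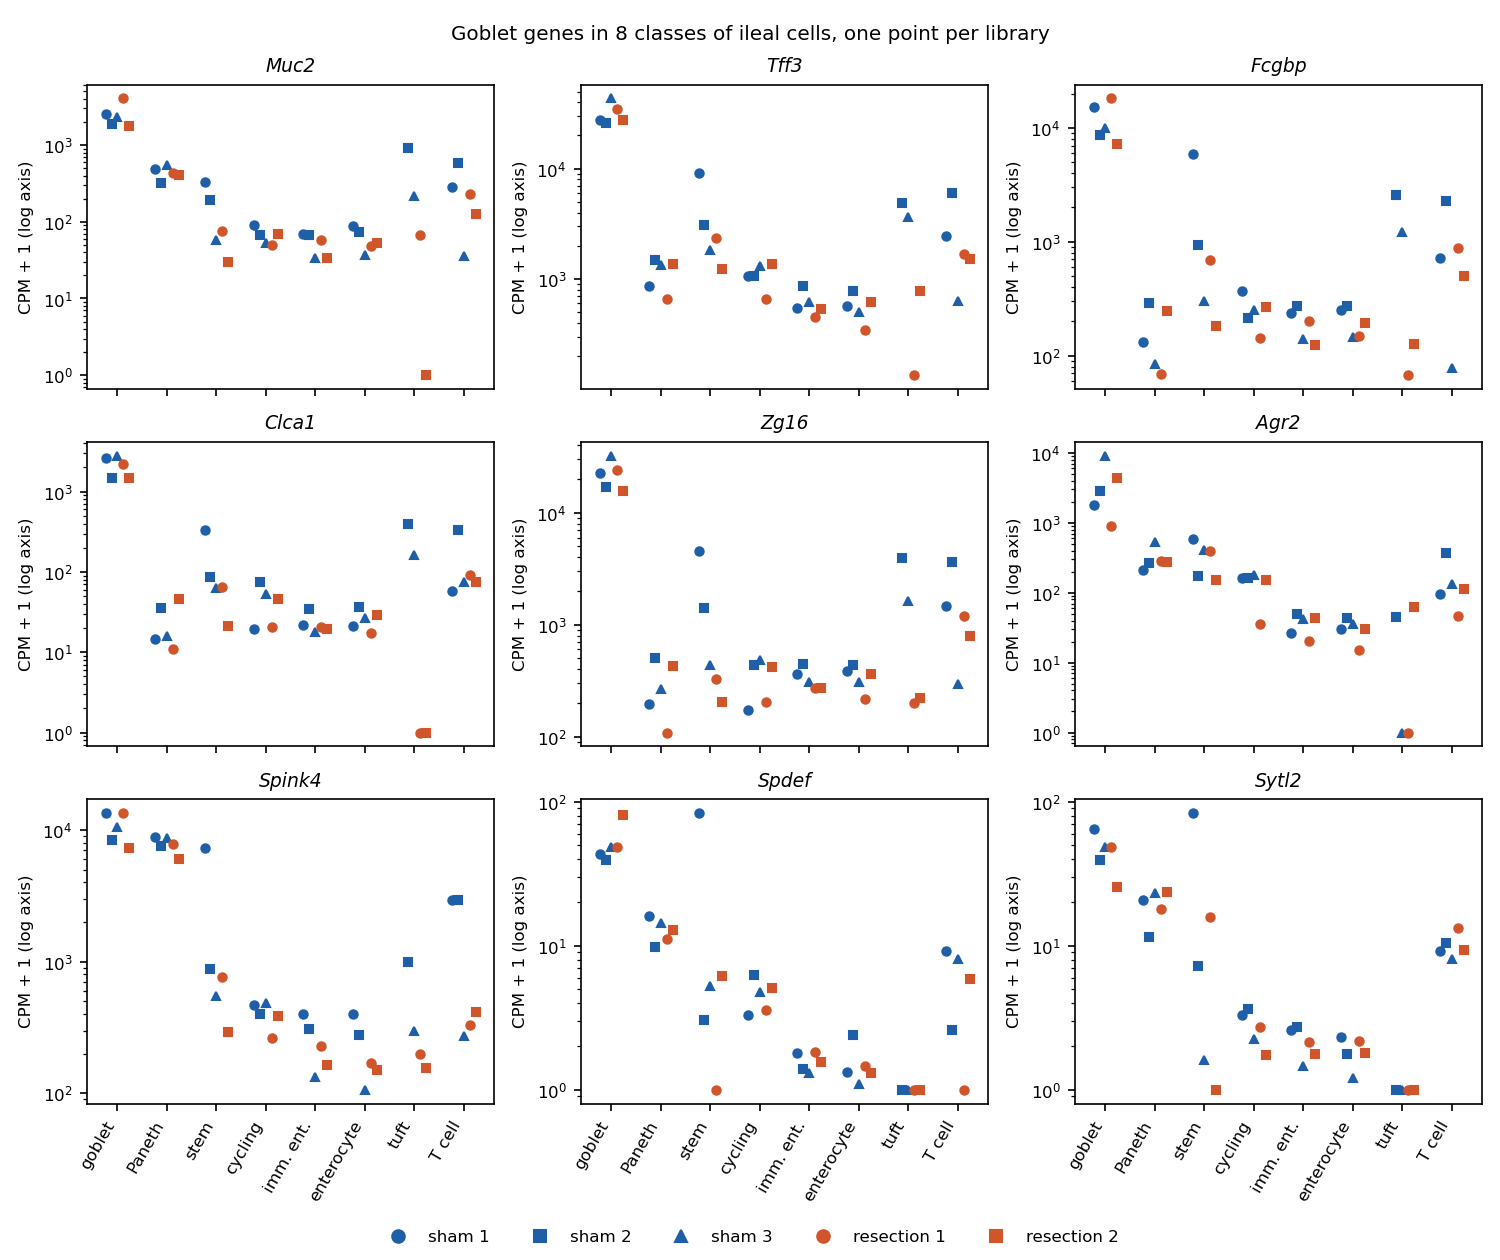
Level of each of the 9 genes (CPM + 1, log axis) in 8 classes of cells, with 1 point per library, blue for sham and orange for resection. All 9 genes were highest in goblet-like cells on average; Spink4 was nearly as high in Paneth-like cells, whereas Fcgbp, Clca1 and Zg16 were no higher in Paneth-like than in enterocyte-like cells in most libraries. The stem-like value of sham 1 rests on 2 cells.

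The order of the other classes differed by gene. For Muc2, Tff3, Agr2, Spink4, Spdef and Sytl2 the mean Paneth-like level lay above the enterocyte-like, immature enterocyte-like and cycling-like levels. For Tff3 it was above the cycling-like level of the same library in only 2 of 5 libraries. Muc2 averaged 438 ± 83.5 CPM (SD, n = 5 libraries) in Paneth-like, 136 ± 124.5 in stem-like, 65.0 ± 16.4 in cycling-like, 59.1 ± 20.3 in enterocyte-like and 51.5 ± 17.5 in immature enterocyte-like cells. Ranges of neighbours in this order overlapped, those of Paneth-like (323 to 543 CPM) and stem-like cells (29.3 to 330 CPM) only through sham 1. Tuft-like and T cell-like droplets, with Muc2 means of 298 and 252 CPM, are left out of this order. Tff3 was at 3530 ± 3222 CPM in stem-like cells, 1140 ± 365 in Paneth-like, 1089 ± 276 in cycling-like, 598 ± 158 in immature enterocyte-like and 561 ± 162 in enterocyte-like cells. Its ranges overlapped between neighbours in this order. The stem-like range (1220 to 9162 CPM) lay above the immature enterocyte-like (449 to 862 CPM) and enterocyte-like ranges (342 to 784 CPM). Agr2 averaged 339 ± 178 CPM in stem-like, 310 ± 123 in Paneth-like and 137 ± 57.8 in cycling-like cells, against 35.5 ± 12.2 in immature enterocyte-like and 29.9 ± 10.1 in enterocyte-like cells. For Agr2 the ranges of Paneth-like and cycling-like cells did not overlap. In stem-like cells Tff3, Agr2 and Spink4 were above the enterocyte-like level of the same library in 5 of 5 libraries. The medians were 3.93-fold, 11.8-fold and 4.52-fold. For each gene sham 1 gave 1 of the 5 values from only 2 cells. The median stem-like cell, thinned to 2000 UMIs, held 0 UMIs of each gene. The 95th percentiles were 24, 2 and 5 UMIs, and the highest cells held 91, 35 and 37. The median enterocyte-like cell also held 0 of each. A count of all genes above the enterocyte-like level was not made for stem-like cells. No test was run between classes, since clustering used the same cells.

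Tuft-like and T cell-like droplets gave means above enterocyte-like cells for several of the genes, and a few droplets carried them. The median T cell-like droplet, thinned to 2000 UMIs, held 0.1% of its UMIs in the 9 genes, but 17 of 462 held over 5% and the highest 40.9%. The corresponding median was 7.125% in goblet-like cells (5th to 95th percentile 0.850% to 21.1%), 0.9% in Paneth-like cells and 0.05% in enterocyte-like cells. A goblet-like cell showed a median of 7 of the 9 genes at this depth, a Paneth-like cell 3 and an enterocyte-like cell 1.

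Measured as CPM, Paneth-like cells shared some of these genes with goblet-like cells and not others. Spink4 reached 82.8% of the goblet-like CPM of the same library (median of 5 libraries, range 58.6% to 90.1%). Its Paneth-like level was 8830, 7593 and 8750 CPM in the sham and 7879 and 6058 CPM in the resection libraries. Each of these was at least 22.2 times the enterocyte-like level of its library. Sytl2 reached a median of 35.6% (27.4% to 93.3%) of the goblet-like level and Spdef 22.9% (14.9% to 35.7%). The Paneth-like level of Spdef was 15.2, 8.84 and 13.3 CPM in the sham and 10.2 and 11.9 CPM in the resection libraries, against 0.104 to 1.39 CPM in enterocyte-like cells.

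Muc2 in Paneth-like cells stood at 489, 323 and 543 CPM in the sham and 429 and 406 CPM in the resection libraries. This was 19.5% of the goblet-like level (10.6% to 23.5%) and 4.43 to 15.1 times the enterocyte-like level. Agr2 reached 9.52% (5.76% to 30.9%), the highest share being that of resection 1, where the goblet-like level was lowest. Tff3 reached 3.12% (1.86% to 5.72%) and was 1.52 to 2.71 times the enterocyte-like level. These 6 genes were above the enterocyte-like level in 5 of 5 libraries, which held for 2.80% of the 7043 genes at or above 10 CPM in any of the 3 classes.

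Measured as CPM, Fcgbp, Clca1 and Zg16 lacked such a Paneth-like level. Paneth-like cells held 0.850%, 0.539% and 0.857% of the goblet-like level of these genes (medians). Fcgbp and Zg16 were above the enterocyte-like level in 2 of 5 libraries and Clca1 in 1 of 5. In sham 1, sham 3 and resection 1, Zg16 was at 194, 265 and 108 CPM in Paneth-like and 385, 305 and 214 CPM in enterocyte-like cells. As CPM, Muc2 was thus above the enterocyte-like level in Paneth-like cells of every library, and these 3 other mucus layer genes were not. Among cells thinned to 2000 UMIs, 20.5%, 4.62% and 31.1% of Paneth-like cells held a UMI of Fcgbp, Clca1 and Zg16. In enterocyte-like cells these shares were 15.6%, 3.36% and 28.3%, so by this measure the Paneth-like shares were the higher. For Muc2 they were 56.2% and 6.38%.

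**Figure D2:**
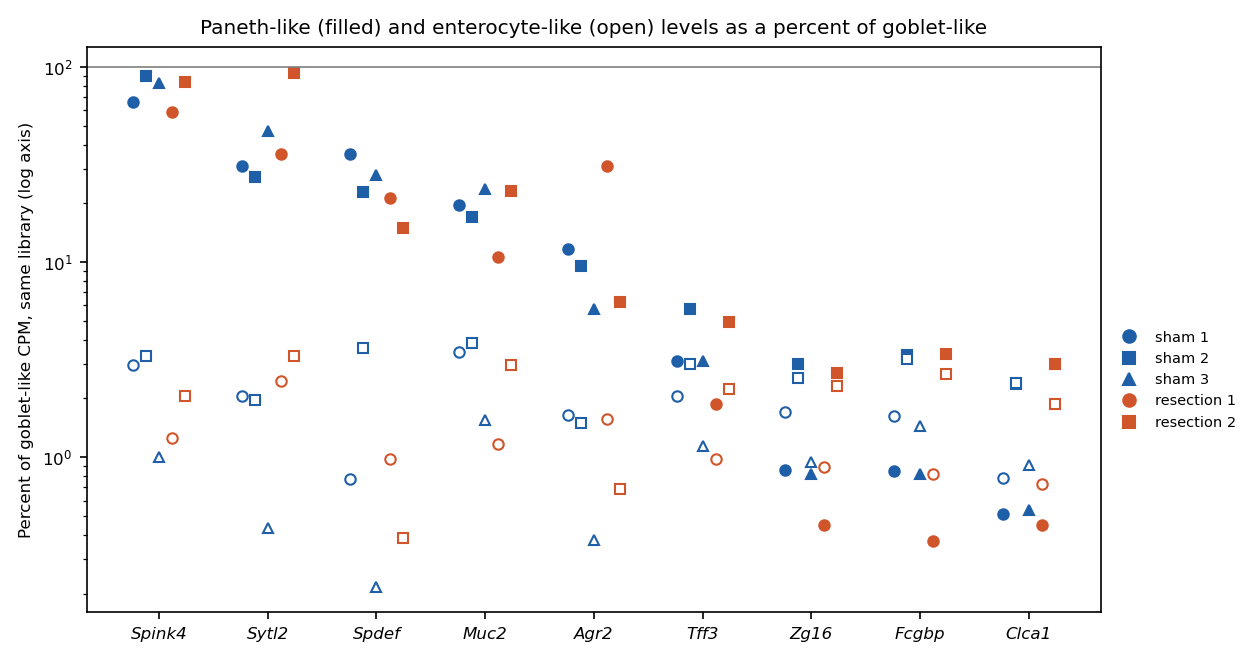
Paneth-like level (filled) and enterocyte-like level (open) of each gene as a percent of the goblet-like CPM of the same library (log axis), with 1 symbol per library. Spink4 lies between 58.6% and 90.1% in Paneth-like cells, Muc2 between 10.6% and 23.5%, and for Zg16, Fcgbp and Clca1 the filled symbol lies below the open one in sham 1, sham 3 and resection 1.

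Goblet-like cells of some libraries held Paneth markers. Without the 55 goblet-like cells that had over 2% of their UMIs in Paneth markers, a setting chosen after seeing the data, Spink4 stood at 82.8% (59.4% to 89.7%) and Muc2 at 21.6% (11.7% to 23.96%). CPM in Paneth-like cells is a share of a total that antimicrobial transcripts dominate. The 13 Paneth markers took a median of 43.7% of the UMIs of a Paneth-like cell, and 76.8% of the 7043 genes were higher in goblet-like than in Paneth-like cells in 5 of 5 libraries. With the UMIs of these markers left out of every total, Spink4 stood at a median of 139% of the goblet-like level (109% to 159%), Sytl2 at 66.3%, Spdef at 40.4%, Muc2 at 33.3%, Agr2 at 16.8% and Tff3 at 5.60%. Fcgbp, Clca1 and Zg16 stood at 1.49%, 0.974% and 1.48%. The comparison with enterocyte-like cells was not repeated on this scale. Paneth-like cells also held more UMIs, with a median of 10101 per cell against 4434.5 in goblet-like cells. Counted per cell, Spink4 gave 188, 93.5 and 83.3 UMIs per Paneth-like cell in the sham and 182 and 42.1 in the resection libraries. A goblet-like cell held 79.1, 44.1 and 59.1 Spink4 UMIs in the sham and 73.4 and 39.9 in the resection libraries, fewer than a Paneth-like cell in 5 of 5. The direction of the Spink4 difference therefore depended on the scale: lower in Paneth-like cells as CPM, higher per cell and without the markers. Muc2 per cell was 40.2% of goblet-like (29.2% to 70.5%), and Fcgbp, Clca1 and Zg16 were at 3.07%, 1.90% and 3.10%.

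Where the transcripts of a library lay depends on both the level per cell and the number of cells of each class. Paneth-like cells held a median of 64.85% of all Spink4 UMIs of a library (53.2% to 90.1%), whereas goblet-like cells held 11.4% (2.80% to 15.6%). Muc2 UMIs lay to 34.1% in Paneth-like (23.3% to 74.3%) and to 21.6% in goblet-like cells (7.76% to 29.4%). The goblet-like part was the larger of the 2 in sham 2 (29.4% against 25.9%) and resection 2 (24.7% against 23.3%), and in resection 2 enterocyte-like cells held more than either (26.5%). For Clca1 the goblet-like share was 42.9% (38.3% to 54.9%), for Zg16 38.1% and for Fcgbp 35.7%, and the Paneth-like shares were 5.63%, 5.11% and 4.49%. Agr2 UMIs lay to 39.9% in goblet-like (6.54% to 45.8%) and to 21.9% in Paneth-like cells (11.7% to 69.4%), so the larger holder differed by library. Enterocyte-like cells held a median of 26.8% of Fcgbp UMIs and 23.3% of Zg16 UMIs at low levels per cell.

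**Figure D3:**
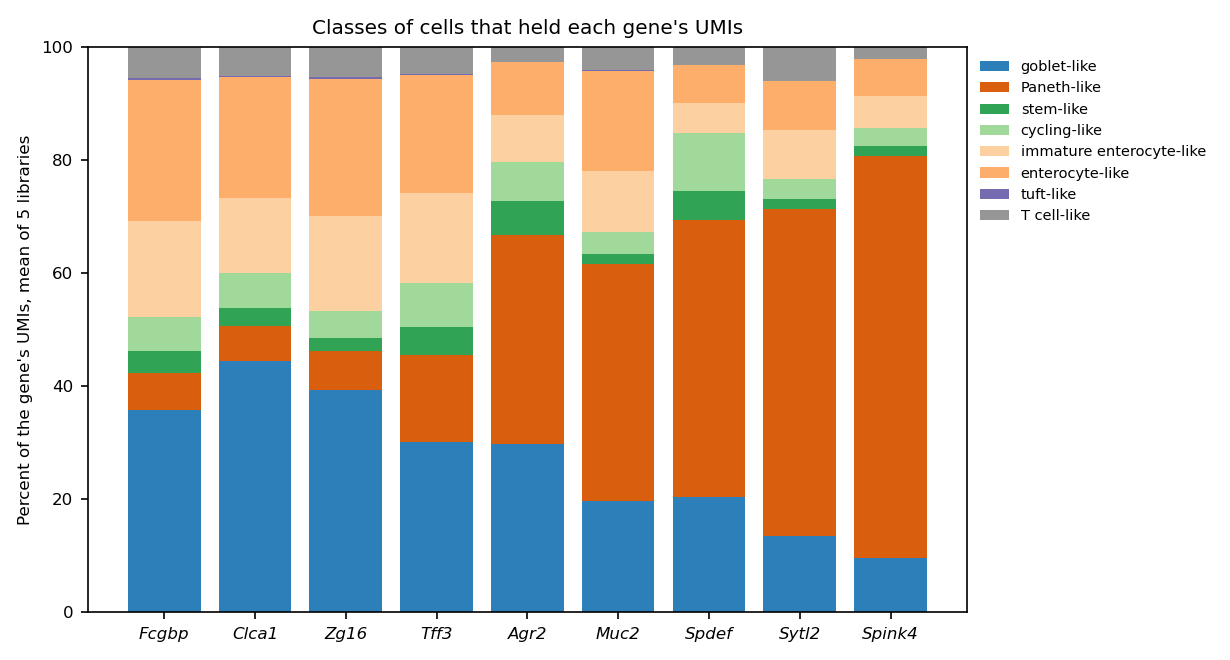
Percent of each gene's UMIs found in each class of cells, as the mean of 5 libraries (stacked bars). Goblet-like cells hold the largest part for Fcgbp, Clca1, Zg16 and Tff3, and Paneth-like cells for Muc2, Spdef, Sytl2 and Spink4; for Agr2 the mean is 29.8% in goblet-like and 37.0% in Paneth-like cells.

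Shares of cells with a UMI were read against T cell-like droplets, which should lack these genes. Some of these droplets were rich in them, with up to 40.85% of their thinned UMIs, so the T cell-like shares may overstate background. A share below them therefore cannot show that a gene is background. All cells were thinned to 2000 UMIs, no cell was left out, and intervals are 95% Clopper-Pearson intervals that cover counting error only. Spink4 was found in 98.8% of 260 goblet-like cells (96.7% to 99.8%), in 1017 of 1017 Paneth-like cells (99.6% to 100%) and in 39.4% of T cell-like droplets (34.9% to 44.0%). Muc2 was found in 84.2% of goblet-like (79.2% to 88.4%), 56.2% of Paneth-like (53.1% to 59.3%) and 97 of 462 T cell-like droplets. Agr2 was found in 77.7%, 37.1% and 14.7%, and Tff3 in 99.2%, 78.1% and 59.5%. Before thinning, Muc2 was found in 91.2% of goblet-like and 93.5% of Paneth-like cells, at median depths of 4434.5 and 10101 UMIs, and in 30.95% of T cell-like droplets at 5074.5 UMIs. Fcgbp, Clca1 and Zg16 were found in 20.5%, 4.62% and 31.1% of thinned Paneth-like cells, below the 31.8%, 13.4% and 43.1% of T cell-like droplets. Paneth markers took a median of 43.7% of the UMIs of a Paneth-like cell, which leaves fewer for other genes at this depth. Whether the Paneth-like UMIs of Fcgbp, Clca1 and Zg16 are background was not tested. The 44.5% of enterocyte-like cells with a Tff3 UMI did not exceed the T cell-like share either. Nor did the 47.8%, 14.6% and 36.5% of stem-like cells with a UMI of Tff3, Agr2 and Spink4. Spdef was found in 11.9% of goblet-like (8.25% to 16.5%) and 2.56% of Paneth-like cells (1.68% to 3.72%), against 1.08% of T cell-like droplets (0.352% to 2.51%).

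Among the 260 goblet-like cells the genes varied in 2 blocks. Each library was centred on its own mean and values were taken as log2(UMIs per 10000 + 1). Muc2, Fcgbp, Clca1, Zg16 and Tff3 went up and down together, with Pearson's r between 0.64 (Clca1 with Zg16) and 0.81 (Muc2 with Fcgbp and Tff3 with Fcgbp). Agr2 and Spink4 formed the other pair, at r = 0.67. Between Agr2 or Spink4 and the mucus genes Muc2, Fcgbp, Clca1 and Zg16, r ran from 0.11 (Muc2 with Agr2) to 0.35 (Clca1 with Agr2). Tff3 went with both, at 0.53 with Agr2 and 0.49 with Spink4.

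The libraries of at least 30 goblet-like cells were also taken singly. Muc2 with Fcgbp gave r = 0.82, 0.86 and 0.84 in sham 2, sham 3 and resection 2, and Agr2 with Spink4 gave 0.66, 0.66 and 0.72. Muc2 with Agr2 gave 0.33, −0.08 and −0.06. Both blocks were present in each of the 3 libraries, but sham 2 tied them more closely, up to r = 0.52 for Zg16 with Spink4. In sham 2, 64 of 109 goblet-like cells had at most 2% of their UMIs in Paneth markers. In sham 3 it was 30 of 30 and in resection 2 75 of 82. All cells were kept here, and the part of Paneth markers in these r values was not tested. These are correlations across cells that share a library, differ in depth and are scaled to the same total, and they are given as descriptions. Spdef and Sytl2 had too few UMIs per cell for such values to be read.

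Agr2 also varied widely from cell to cell. Its median was 14.3 UMIs per 10000, with the 10th and 90th percentiles at 0 and 122, whereas Spink4 ran from 16.8 to 191 around 69.9 and Muc2 from 1.74 to 55.6 around 15.2. In sham 3 the median goblet-like cell held 73.7 Agr2 UMIs per 10000, and in resection 1 it held 5.47.

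**Figure D4:**
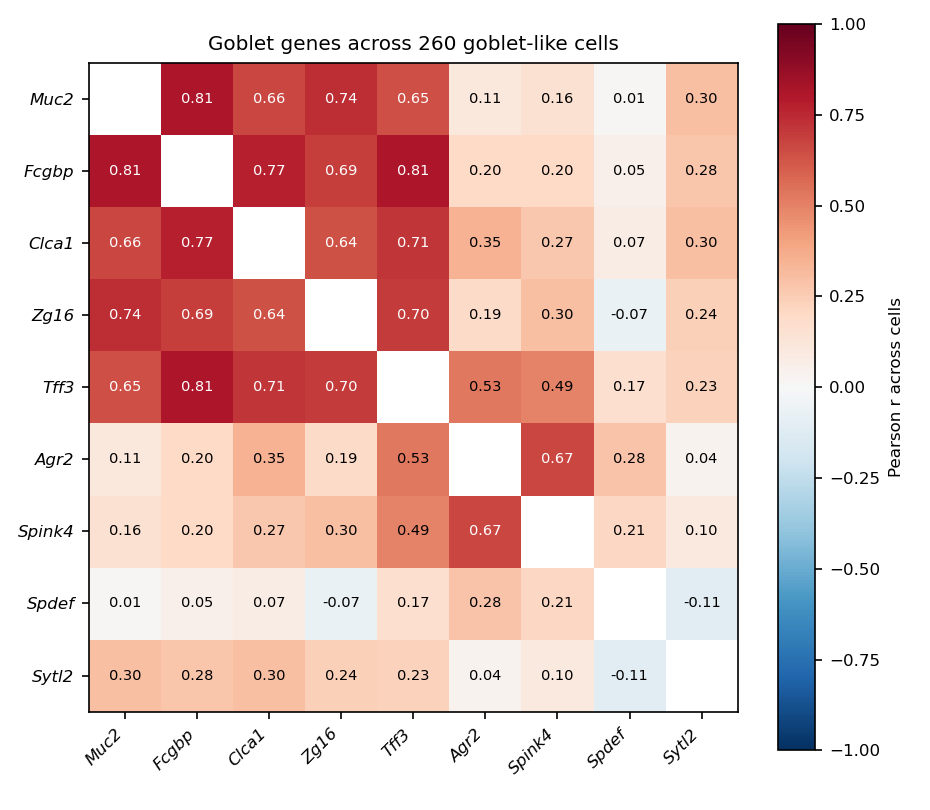
Pearson's r between the 9 genes across 260 goblet-like cells, each library centred on its mean (colour from −1 to 1, values printed). Muc2, Fcgbp, Clca1, Zg16 and Tff3 form a block with r from 0.64 to 0.81, and Agr2 and Spink4 a pair at 0.67 to which Tff3 is also tied.

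The genes closest to each block differed as well, among 2542 genes seen in at least 20% of goblet-like cells. After the members of its own block, Muc2 was closest to S100a6 (r = 0.53), as were Fcgbp (0.56), Clca1 (0.55) and Zg16 (0.58). Next to Agr2, after Spink4, stood Lgals2 (0.63), Guca2a (0.63), which encodes the gut peptide guanylin, Selm (0.63) and Txndc5 (0.55), a disulfide isomerase. Of the list of secretory protein folding and stress response genes, all 19 that were detected this widely had a higher r with Agr2 than their mean r with Muc2, Fcgbp, Clca1 and Zg16, which was true of 59.1% of all 2534 other genes. The median r of this list was 0.30 with Agr2 and −0.04 with the mucus genes. Pdia6 (0.51 with Agr2), Sec61b (0.48), Fkbp11 (0.47) and Manf (0.37) were among them. For mucin O-glycosylation genes the count was 10 of 11, with St3gal4 the exception at −0.37. It was 6 of 9 for granule trafficking genes, 2 of 3 for secretory lineage regulators and 4 of 8 for other mucins and mucus layer proteins.

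Across 34 of the sums per class and library (2364 genes of at least 50 CPM in goblet-like cells), Klk1 was most like the mean of the 9 genes, at r = 0.98. It was followed by Hgfac (0.95), Bcas1 (0.95), Hepacam2 (0.94), Tpsg1 (0.94), Selm (0.90), Slc12a8 (0.90) and 9530053A07Rik (0.90). Klk1, Bcas1, Tpsg1 and Slc12a8 were among the markers that named the goblet-like class. The points share libraries and composition. Klk1, a kallikrein protease, averaged 247 CPM in goblet-like, 17.8 in Paneth-like and 2.98 in enterocyte-like cells.

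All 9 genes were above enterocyte-like cells in 5 of 5 libraries, and the same count was made for 5 lists of related genes. Of the 26 mucin O-glycosylation genes 20 reached 10 CPM in 1 of the classes, and 10 of these were higher in goblet-like than in enterocyte-like cells in 5 of 5 libraries, as were 15.4% of all 7043 genes at this level. Galnt7, a transferase of O-glycan synthesis, averaged 127 ± 38.5 CPM in goblet-like and 44.8 ± 15.5 CPM in enterocyte-like cells (SD, n = 5). St3gal4, a sialyltransferase and the most abundant gene of the list in goblet-like cells, was lower there (923 ± 181 CPM) than in enterocyte-like cells (1594 ± 335 CPM) in 5 of 5 libraries.

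Of the 32 folding and stress response genes, 30 reached 10 CPM and 15 were higher in goblet-like than enterocyte-like cells in 5 of 5 libraries. The chaperone Calr averaged 705 ± 146 CPM against 583 ± 127. P4hb and Hspa5, at 981 ± 304 and 654 ± 240 CPM in goblet-like cells, were higher than in enterocyte-like cells in 3 of 5. Of the 21 granule trafficking genes, 17 reached 10 CPM and 7 were higher in 5 of 5. Qsox1, a sulfhydryl oxidase, was at 169 ± 69.5 CPM in goblet-like, 110 ± 22.0 in Paneth-like and 19.6 ± 9.08 in enterocyte-like cells. Vamp8, a vesicle SNARE, and Scin, an actin-severing protein of secretory cells, stood at 347 ± 14.9 and 164 ± 39.9 CPM, higher than in enterocyte-like cells in 0 and 1 of 5 libraries.

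Of the 15 secretory lineage regulators, 11 reached 10 CPM and 6 were higher in goblet-like than in enterocyte-like cells in 5 of 5 libraries. Foxa3, a forkhead factor, averaged 82.2 ± 15.5 CPM in goblet-like, 29.5 ± 8.23 in Paneth-like and 1.88 ± 1.26 in enterocyte-like cells. Elf3 and Klf4, at 265 ± 75.4 and 191 ± 85.4 CPM, were higher than in enterocyte-like cells in 1 of 5. Among the other mucins and mucus layer proteins, 10 of 21 reached 10 CPM and 3 were higher in 5 of 5. Guca2a averaged 4936 ± 2002 CPM in goblet-like and 3694 ± 841 in enterocyte-like cells. Guca2b, which encodes uroguanylin, was lower in goblet-like cells (2333 ± 664 against 4984 ± 1292 CPM) in 5 of 5, and Lypd8 (1632 ± 544 CPM) was higher in 3 of 5.

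Surgery was compared over libraries, with UMIs summed per library and class. No gene of the 9 passed edgeR's quasi-likelihood test at an adjusted p of 0.05 in goblet-like, Paneth-like, enterocyte-like or all epithelial cells, and none did with DESeq2. In goblet-like cells 7 of the 9 were tested, since Spdef and Sytl2 had too few UMIs, and 0 had an unadjusted p below 0.05. Over the 2349 genes tested there, 0.0426% passed the adjusted and 2.68% the unadjusted threshold. For 0 of the 7 genes both resection libraries lay above or below every sham library, against 8.17% and 7.07% of all genes tested.

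Within goblet-like cells the groups overlapped for every one of the 7 genes. On the scale of the test (CPM scaled with TMM factors), Muc2 was at 2786, 2234 and 2600 in the sham and 4683 and 2020 in the resection libraries. Resection 1 was the highest of the 5 for Muc2 and resection 2 the lowest. The log2 fold change of resection over sham was 0.40 ± 0.48 (SE; edgeR adjusted p = 0.998), and −0.27 without resection 1. Fcgbp behaved alike, at 0.19 ± 0.50, and −0.55 without resection 1. Agr2 was at 1995, 3322 and 10271 in the sham and 1035 and 4942 in the resection libraries. Its log2 fold change was −0.79 ± 0.69 (adjusted p = 0.998 by edgeR). It became 0.20 without sham 3 and −2.38 without resection 2.

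Clca1, Zg16, Spink4 and Tff3 had log2 fold changes of −0.29, −0.26, −0.04 and −0.04 in goblet-like cells. The median of the 7 genes was −0.04 beside −0.03 for all genes tested. Inside the set of sham 1 and resection 1 their median was 0.13, and inside the other set −0.36, with medians of all genes at −0.04 and 0.01. Goblet-like sums also differed in other markers. The 10 enterocyte markers summed to 14901 to 28673 CPM in the sham and 40233 to 48319 CPM in the resection libraries, and their part in these values was not tested. Paneth markers summed to 2598 to 21492 CPM and 8064 to 11182 CPM.

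In Paneth-like cells all 9 genes were tested. Spink4 was at 9269, 7540 and 9604 TMM-scaled CPM in the sham and 9601 and 4484 in the resection libraries, so only resection 2 lay below the sham range. In the Paneth-like sums of resection 2 the 10 enterocyte markers summed to 16322 CPM, against 2752 to 6514 CPM in the other 4 libraries, and their part in these values was not tested. Its log2 fold change was −0.32 ± 0.55 (edgeR adjusted p = 0.9998), and 0.11 without resection 2. Muc2 was at 514, 321 and 596 in the sham and 523 and 300 in the resection libraries, a log2 fold change of −0.21 ± 0.49. The 9 genes ran from −0.58 for Zg16 to 0.07 for Sytl2 with a median of −0.32, and the median of all 6266 genes tested was 0.01. For 0 of the 9 were the groups apart. Of all genes tested, 0.0319% passed at the adjusted and 2.06% at the unadjusted threshold, 7.48% had both resection libraries above and 6.37% below every sham library.

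In enterocyte-like cells the share of thinned cells with a UMI was below that of T cell-like droplets for each of the 9 genes. All but Spdef were tested, and Tff3 was at 485, 870 and 534 TMM-scaled CPM in the sham and 312 and 664 in the resection libraries. Of the 8 genes 7 had negative log2 fold changes, from −0.34 for Clca1 to −0.70 for Agr2, and Sytl2 was at 0.56. None passed a threshold and no group lay apart. Among the 10084 genes tested, 0% passed the adjusted threshold (82 with DESeq2), 5.75% the unadjusted one, 11% lay above and 9.13% below every sham library.

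Over all epithelial cells the 9 genes had lower means after resection, without passing the test. Agr2 was at 147, 178 and 164 TMM-scaled CPM in the sham and 58.9 and 113 in the resection libraries. Both resection libraries lay below every sham library. Its log2 fold change was −0.92 ± 0.35, with an unadjusted p of 0.0321 and an adjusted p of 0.9999 by edgeR's quasi-likelihood test. It was the 1 gene of the 9 below 0.05 unadjusted.

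Tff3, at 1096, 1841 and 1027 in the sham and 555 and 1021 in the resection libraries, was apart by a small margin. Clca1 and Zg16 were apart as well, with log2 fold changes of −0.81 ± 0.40 and −0.82 ± 0.45. Thus 4 of the 9 genes lay below every sham library, and 6.31% of the 11753 genes tested did so. The share with both resection libraries above was 7.91%, and 0% and 2.75% passed the adjusted and unadjusted thresholds. The median of the 9 was −0.92 beside −0.03 for all genes. Inside the 2 sets it was −1.32 and −0.47. Leaving out 1 library at a time gave medians from −1.02 to −0.60.

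Spink4 had the lowest log2 fold change over all epithelial cells, −1.35 ± 0.85, at 4790, 1725 and 672 TMM-scaled CPM in the sham and 1318 and 563 in the resection libraries. Sham 1 was high, and in sham 1 17.4% of epithelial cells were Paneth-like, against 6.51%, 4.30%, 4.88% and 4.10% in sham 2, sham 3, resection 1 and resection 2. The part of this share in the Spink4 value was not tested.

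Goblet-like cells made up 1.28% of epithelial cells in sham 1 (95% Clopper-Pearson interval 0.734% to 2.07%), 2.97% in sham 2 (2.44% to 3.57%) and 1.09% in sham 3 (0.739% to 1.56%). They made up 0.631% in resection 1 (0.400% to 0.945%) and 1.27% in resection 2 (1.01% to 1.57%). The difference of −0.831 percentage points had an exact two-sided permutation p of 0.5 (adjusted 0.5 over 2 tests). Inside the sets it was −0.650 and −0.761, and without sham 2 it was −0.237. All 9 genes together took 0.640%, 0.512% and 0.297% of the epithelial UMIs in the sham and 0.292% and 0.267% in the resection libraries. Both resection libraries lay below the lowest sham library, sham 3. This difference of −0.204 had an exact two-sided permutation p of 0.2 (adjusted 0.4). With 10 ways to choose 2 of 5 libraries the smallest p possible was 0.1, so this design could not reach 0.05. Without sham 1 the difference was −0.125. A lower sum over all cells can come from fewer cells of a type or from less RNA per cell, and these cannot be told apart from the sum alone.

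**Figure D5:**
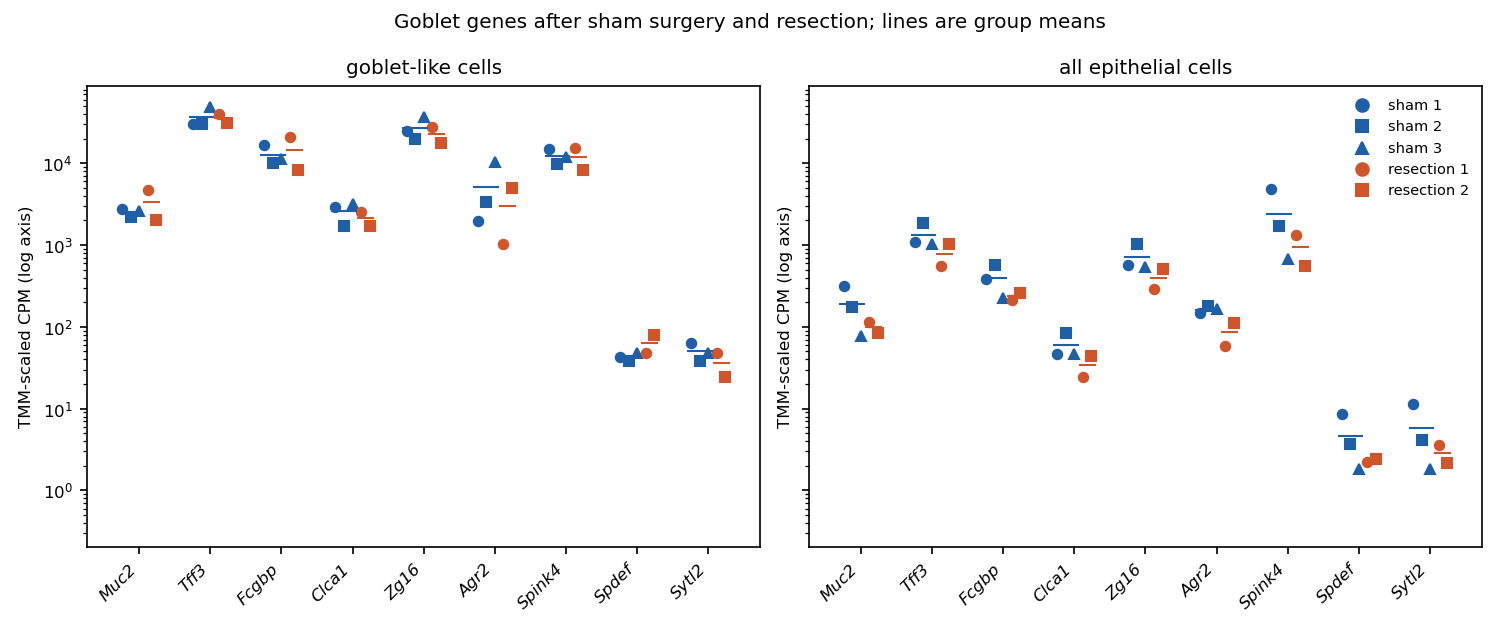
TMM-scaled CPM (log axis) of the 9 genes in goblet-like cells (left) and in all epithelial cells (right), with 1 point per library and lines at the group means. In goblet-like cells the groups overlap for the 7 tested genes; over all epithelial cells Tff3, Clca1, Zg16 and Agr2 lie lower in both resection libraries than in every sham library. Spdef and Sytl2, not tested in goblet-like cells, are shown there as CPM without TMM factors.

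No gene of the 5 pathway lists passed the adjusted threshold in any of the 4 surgery comparisons. In goblet-like cells 20 of the 32 folding and stress response genes were tested, 17 with a negative log2 fold change, and their median was −0.31. Of these, 4 lay below every sham library, as did 7.07% of all genes tested there, and 0 were below 0.05 unadjusted. The median of all genes was −0.03. Manf, a secreted stress factor of the endoplasmic reticulum, was at 224, 337 and 692 TMM-scaled CPM in the sham and 156 and 265 in the resection libraries (log2 fold change −0.96 ± 0.49 SE). Pdia6, a disulfide isomerase, was at 425, 254 and 517 in the sham and 156 and 275 in the resection libraries (−0.82 ± 0.44), and the groups overlapped for both. Over all epithelial cells 28 of the 32 genes of this list had negative values, with a median of −0.36 beside −0.03 for all genes. Of the 32, 12 lay below every sham library, as did 6.31% of all genes tested. Of the mucin O-glycosylation genes, 10 were tested in goblet-like cells with a median of −0.03, and the lowest p was that of C1galt1 (−0.57 ± 0.53 SE), the enzyme that makes core 1 O-glycans.

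Of the granule trafficking genes 9 were tested in goblet-like cells, with a median of −0.08. Rab3d, a Rab protein of secretory granules, was at −0.78 ± 0.55 and the SNARE Stx3 at 0.52 ± 0.43. Among 4 tested lineage regulators Klf4, a factor of goblet cell differentiation, was at 0.72 ± 0.41 and Dll1, a Notch ligand of secretory precursors, at −0.998 ± 0.878. Among 8 other mucus layer genes the transmembrane mucin Muc13 was at 0.68 ± 0.46 and Cdhr5, a microvillar cadherin, at 0.69 ± 0.47. All these genes had an edgeR adjusted p of 0.998.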

How the data were processed

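The deposited files hold UMI counts per gene and cell barcode, which the authors made with Cell Ranger (the labels mark its version as uncertain) on builds given as mm10 and GRCm38 per the submitters' processing notes. From these counts, barcodes with at least 500 genes and at most 20% mitochondrial UMIs were kept, and simulated-doublet neighbours were removed at 0.8% per 1000 cells (3.80% of cells). Cells were clustered on 2000 variable genes, without the 9 genes and the pathway lists, with 30 principal components, 20 neighbours and leidenalg 0.10.2 at resolution 1.0. Clusters were named by mean marker position. UMIs were summed per library and class and tested with edgeR 4.0.16 (TMM, quasi-likelihood, Benjamini-Hochberg over all genes), with DESeq2 1.42.0 as an alternative. Single values were compared by exact permutation over 10 splits. On simulated data with 200 changed genes of log2 size 2, 177 of 182 tested were recovered in goblet-like sums with 13 false calls, and 165 of 186 with 2 false calls in Paneth-like sums. The simulation gave every gene the same dispersion and held no sets of libraries. These counts therefore do not measure how often changes as small as those of the 9 genes would be found. Library totals were 11749028 to 41281731 UMIs, and counts of few UMIs carry large counting error. Named genes were the 9 members; per list, the 3 most abundant in goblet-like cells and the 2 with the lowest p there; and the 8 most alike. A gene that this rule names is not reported here. Genes named from correlations within goblet-like cells fall outside that rule and were chosen after their values were seen. The members, lists and scoring rule were chosen with earlier results of these data known.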

Additional observations from a re-analysis of the deposited data

Results flagged for a closer look

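Droplets outside the goblet-like class carried high shares of the 9 genes. Among 462 T cell-like droplets, 16 had over 5% of their UMIs in the 9 genes, 13 of them in sham 2, and the highest share was 41.6%. Among 720 droplets removed as doublets, 2 had over 5%, both in resection 2. Both counts were noted because these droplets enter no surgery comparison.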

How the results depend on the processing

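Of 224 refits of the members' log2 fold changes in goblet-like and Paneth-like cells, 197 kept their direction and side of the threshold and 27 changed sign. In goblet-like cells Tff3 became 0.21 with the replicate number as a block, Fcgbp −0.076 with the set of libraries as a term and Spink4 0.0046 without doublet removal. In Paneth-like cells Clca1 became −0.0070 without the filter on low counts, −0.14 with the replicate block, −0.014 at Leiden resolution 2.0 and −0.12 without doublet removal. Agr2 became 0.12 with the replicate block and Sytl2 −0.043 without doublet removal there. Leaving out 1 library at a time gave goblet-like ranges of −0.27 to 0.87 for Muc2, −0.17 to 0.24 for Tff3, −0.55 to 0.70 for Fcgbp, −0.55 to 0.024 for Zg16, −2.38 to 0.20 for Agr2 and −0.49 to 0.32 for Spink4. The Paneth-like ranges were −0.69 to 0.12 for Muc2, −1.07 to 0.20 for Fcgbp, −0.88 to 0.55 for Clca1, −0.84 to 0.15 for Agr2, −0.999 to 0.11 for Spink4 and −0.25 to 0.25 for Sytl2. The cause was not tested. The log2 ratio of Paneth-like to goblet-like changed sign for Spink4 with Paneth marker UMIs left out of totals (0.40) and per cell (0.84), and for Sytl2 per cell (0.0048). These scales were chosen after seeing the data. With the replicate number as a block, 1 member was called in enterocyte-like and 8 in all epithelial cells, and genes called overall went to 0, 44, 249 and 265 in goblet-like, Paneth-like, enterocyte-like and all epithelial cells. The labels do not say that a number marks a shared source. Deviations of same-numbered libraries correlated at 0.49 and 0.06 in goblet-like and 0.65 and 0.39 in all epithelial cells. Those of sham 3 and resection 2, which differ in number, correlated at 0.47 and 0.51. With 2 resection libraries the deviations of one mirror those of the other, so these values cannot show whether a number marks a shared source. DESeq2 called 3, 6, 82 and 36 genes overall in these 4 classes, where edgeR called 1, 2, 0 and 0. The share of goblet-like cells ran from −1.17 to −0.237 percentage points and the members' share from −0.297 to −0.125 over single left-out libraries. Of 36 shares of cells with a UMI, 30 moved with thinning depth. With 16 to 109 goblet-like cells per library, Spdef and Sytl2 could not be tested there.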
